A study of Mus musculus with 10 samples.

Results

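The TRiC chaperonin, also called CCT, is encoded by 8 paralogous subunit genes, Tcp1, Cct2, Cct3, Cct4, Cct5, Cct6a, Cct7 and Cct8. They were chosen by gene symbol among the 22373 genes of a footprint count table. The rows of 7 of them were used, and Cct6a was not analysed here. Ribosome profiling (Ribo-seq) sequences the stretches of mRNA that a ribosome shields from nuclease, called footprints or RPFs, and was run on neocortex of wild-type CD-1 mice. The embryonic stages were E12.5, E14, E15.5 and E17, named by the days since timed mating, and pups were taken on the day they were born (P0). Each stage had 2 libraries, each made from a pool of many brains of both sexes, so p-values measure the spread between pools. The groups differed by stage, and the tissue was a mixture of cell types.

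TRiC is an ATP-driven folding machine of the cytosol, built of back-to-back rings in which each subunit takes a fixed place. A newly made polypeptide enters the central cavity, the built-in lid closes, and the protein folds inside. Actin and tubulin are its best known clients and cannot reach their native state without it, and both form the cytoskeleton that migrating neurons and growing axons depend on.

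A gene was called where its adjusted p was under 0.05 and its log2 fold change was 0.32 or more in size (limma-voom, Benjamini-Hochberg over 13484 genes tested). At none of the 4 steps between adjacent stages was a TRiC subunit called, while 0.638%, 36.1%, 9.04% and 20.5% of all genes were called at these steps in order of age. These shares moved with single libraries: with each of the 10 left out in turn they ran from 0% to 8.02%, 20.3% to 48.2%, 0% to 21.8% and 4.11% to 33.7%. From E12.5 to P0, 2 of 7 subunits were called lower, Cct3 by 1.31-fold and Cct8 by 1.34-fold, beside 62.1% of all genes called and 32% called lower. Cct4 had the highest fitted change of the subunits, a log2 fold change of 0.16 that did not pass the test. Without P0 replicate 1 the changes of Cct3 and Cct8 were both smaller than the 0.32 that a call needs. With libraries scaled by total counts alone, all 7 fitted values were above 0, and Cct2, Cct4 and Cct7 were called higher. That scaling called 66.4% of all genes, 72% of them higher. Most actin and tubulin genes rose over the same span, and the number of TRiC footprints per footprint of these clients was lower at P0 than at E12.5.

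The promoters of the 2 subunits called lower, Cct3 and Cct8, are shown beside that of Cct7, a subunit with a fitted change near 0, to put the sequence beside the values. Each line holds the 250 bases upstream of the RefSeq start on the gene's strand (RefSeq, GRCm38.p6), at chr3:88296885-88297134 on the plus strand for Cct3, chr16:87495870-87496119 on the minus strand for Cct8 and chr6:85451255-85451504 on the plus strand for Cct7. Capitals mark matches on either strand to CCAAT, the CCAAT box, and GGGCGG, the GC box.
Cct3: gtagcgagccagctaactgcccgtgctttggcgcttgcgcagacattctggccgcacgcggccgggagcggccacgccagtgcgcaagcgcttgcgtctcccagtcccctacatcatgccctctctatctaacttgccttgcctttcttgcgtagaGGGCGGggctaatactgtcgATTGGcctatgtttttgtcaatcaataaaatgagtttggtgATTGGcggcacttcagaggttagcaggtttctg
Cct8: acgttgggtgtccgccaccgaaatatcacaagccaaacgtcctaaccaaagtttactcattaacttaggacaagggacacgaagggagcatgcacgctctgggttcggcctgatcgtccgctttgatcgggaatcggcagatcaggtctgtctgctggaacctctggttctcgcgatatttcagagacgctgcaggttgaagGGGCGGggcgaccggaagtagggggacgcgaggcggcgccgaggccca
Cct7: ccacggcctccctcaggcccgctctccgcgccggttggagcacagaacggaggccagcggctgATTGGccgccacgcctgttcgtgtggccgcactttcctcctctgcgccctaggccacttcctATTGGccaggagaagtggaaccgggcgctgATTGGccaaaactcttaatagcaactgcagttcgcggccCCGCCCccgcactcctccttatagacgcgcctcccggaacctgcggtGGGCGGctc
The letters of the GC box stood in all 3 windows, and those of the CCAAT box in Cct3 and Cct7 and not in Cct8.

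A promoter window was found for 6 of the 7 subunits, 8 windows in all because 2 genes had a pair of starts. GGGCGG was in 7 of the 8 windows, against 32.7% of the 32851 mouse windows of the same length. CCAAT was in 3 of 8, against 33.8%. GAANNTTC, the inverted GAA repeat of heat shock elements, was in 1 of 8, against 6.69%, and was not in the 3 windows printed. The matches are letters in a window and were not tested for binding.

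Library totals ranged from 7544404 counts, in P0 replicate 1, to 36129988. The 2 libraries of P0 also differed most from each other. The SD of their log2 ratio was 0.539 over 4559 well counted genes, against 0.127 to 0.221 at the other stages. This SD belongs to the pair and does not tell which library departed. The neocortex transcription factors Emx1 and Tbr1 had counts in every library. From E12.5 to P0, 9 of 9 progenitor markers were called lower, beside 32% of all genes, with a median log2 fold change of -2.73. Neuron markers were called higher in 8 of 8, beside 30.1% of all genes, with a median of 2.25. Interneuron and ganglionic eminence markers were called higher in 7 of 8 (median 3.13) and glial markers in 7 of 8 (median 4.73). All fitted values of these lists were above 0. Markers of endothelium and microglia were called lower in 5 of 6 (median -1.23), with all fitted values below 0. Markers of tissue around the neocortex moved over the span as well. The 8 genes of meningeal fibroblasts summed to 366 and 382 CPM at E12.5 and 26.3 and 16.9 at P0, the 8 of red blood cells to 11013 and 11400 CPM at E12.5 and 1861 and 1438 at P0, and the 6 of choroid plexus to 344 and 284 CPM at E12.5, 1153 and 1159 at E14 and 14.4 and 8.04 at P0. From E14 to E15.5 the meningeal sum went from 298 and 297 CPM to 28.3 and 29.6. The choroid plexus sum was 13.7 and 11.4 CPM at E15.5. Red blood cell genes went from 10994 and 9990 CPM at E14 to 7420 and 6905 at E15.5. At P0 replicate 1 the meningeal gene Lum and the choroid plexus genes Kcne2 and Otx2 had 0 counts. The part of these cells in the results below was not tested, and in such bulk samples fewer cells of a type and fewer footprints per cell cannot be told apart.

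The 7 subunits together took 0.192% and 0.187% of all counts in the E12.5 pools, 0.180% and 0.186% in the E14 pools, 0.231% and 0.234% in those of E15.5, 0.215% and 0.228% in those of E17, and 0.229% and 0.265% in the P0 pools. Histone genes, those with symbols that start with Hist, took 34.0% and 38.5% of the counts at E12.5 and 9.83% and 6.32% at P0. With these genes left out of the totals, the TRiC share was 0.291% and 0.304% in the E12.5 pools, 0.277% and 0.276% in the E14 pools, 0.284% and 0.283% in those of E15.5, 0.249% and 0.259% in those of E17, and 0.254% and 0.283% in the P0 pools. The first share was higher in both P0 libraries than in both E12.5 libraries, and the second was lower in both. Levels below are in CPM, counts scaled to a common library size, with library sizes scaled by TMM, a method that sets the typical gene to no change, so a direction is one relative to the typical gene.

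On that scale the summed level of the 7 subunits was 2256 and 2312 CPM in the E12.5 pools, 2115 and 2124 in the E14 pools, 2177 and 2220 in those of E15.5, 1965 and 2043 in those of E17, and 1878 and 2256 in the P0 pools. The gap between the 2 libraries of P0 exceeded the gap between the means of any adjacent stages.

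Tcp1 (ENSMUSG00000068039), the founding member of the family and the CCT1 subunit, had 361 and 360 CPM in the E12.5 pools, 301 and 343 in the E14 pools, 327 and 334 in those of E15.5, 283 and 307 in those of E17, and 283 and 326 in the P0 pools. Both E12.5 libraries were the highest of all 10, and both E17 libraries lay below both E15.5 libraries. From E12.5 to P0 its log2 fold change was -0.25 ± 0.11 (SE; limma-voom adjusted p = 0.0751).

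Cct2 (ENSMUSG00000034024), the beta subunit, had the narrowest range of the 7 in proportion to its level. It had 130 and 130 CPM in the E12.5 pools, 121 and 123 in the E14 pools, 130 and 134 in those of E15.5, 119 and 121 in those of E17, and 119 and 132 in the P0 pools. The E14 and E17 libraries lay below those of E12.5 and E15.5, and P0 overlapped E12.5. Its fitted log2 fold change from E12.5 to P0 was -0.05, with a 95% interval of -0.25 to 0.16.

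Cct3 (ENSMUSG00000001416), one of the subunits that bind ATP weakly, had 425 and 416 CPM in the E12.5 pools, 368 and 383 in the E14 pools, 338 and 357 in those of E15.5, 300.2 and 314 in those of E17, and 292 and 353 in the P0 pools. Each embryonic stage lay below the one before it with no overlap, and the P0 libraries lay on both sides of E17. From E12.5 to P0 the log2 fold change was -0.39 ± 0.11 (limma-voom adjusted p = 0.0124). Without P0 replicate 1 it was -0.25, smaller than the 0.32 that a call needs, and without E12.5 replicate 1 the adjusted p was 0.0590.

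Cct4 (ENSMUSG00000007739), the delta subunit, had 423 and 497 CPM in the E12.5 pools, 499 and 443 in the E14 pools, 501 and 514 in those of E15.5, 481 and 489 in those of E17, and 465 and 571 in the P0 pools. P0 and E12.5 overlapped. The log2 fold change over the span was 0.16, with an interval of -0.13 to 0.46 (limma-voom adjusted p = 0.288).

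Cct5 (ENSMUSG00000022234), the epsilon subunit, in which a mutation causes a hereditary sensory neuropathy, had 143 and 141 CPM in the E12.5 pools, 125 and 126 in the E14 pools, 120 and 127 in those of E15.5, 102 and 105 in those of E17, and 113 and 118 in the P0 pools. The E12.5 libraries were the highest and the E17 libraries the lowest. From E12.5 to P0 the log2 fold change was -0.29 ± 0.083, with a limma-voom adjusted p of 0.0141. The change was smaller than the 0.32 that a call needs, so it was not called.

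Cct7 (ENSMUSG00000030007), the eta subunit, had 367 and 392 CPM in the E12.5 pools, 375 and 361 in the E14 pools, 403 and 407 in those of E15.5, 352 and 376 in those of E17, and 365 and 407 in the P0 pools. The stages P0 and E12.5 overlapped, and the log2 fold change between them was 0.02 with an interval of -0.19 to 0.24.

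Cct8 (ENSMUSG00000025613), the theta subunit and, like Cct3, one that binds ATP weakly, had 405 and 375 CPM in the E12.5 pools, 325 and 346 in the E14 pools, 358 and 347 in those of E15.5, 328 and 332 in those of E17, and 241 and 349 in the P0 pools. The value of P0 replicate 1 stood apart below all other libraries. From E12.5 to P0 the log2 fold change was -0.42 ± 0.16 (limma-voom adjusted p = 0.0417). Without P0 replicate 1 it was -0.16, with an adjusted p of 0.161, and the call was also lost without any one of the other libraries except P0 replicate 2.

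**Figure D1:**
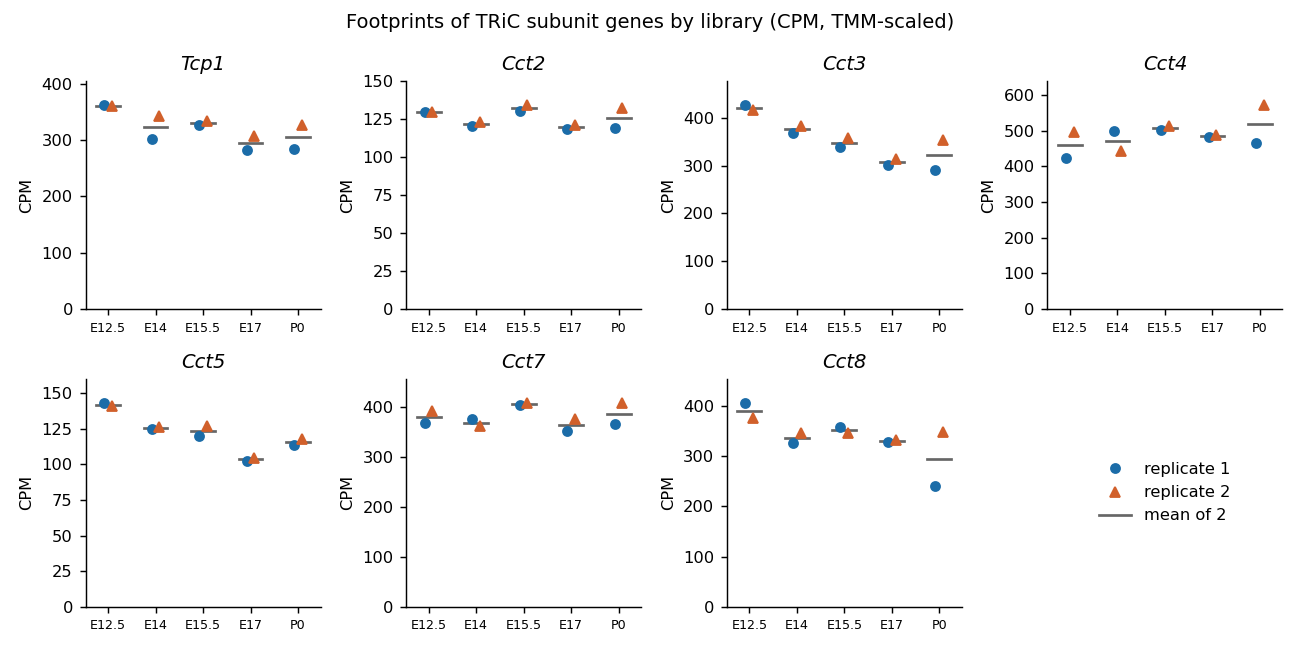
CPM of each of the 7 TRiC subunits (y axis, from 0, TMM-scaled) at the 5 stages (x axis). Circles and triangles are the 2 libraries of a stage and the bar is their mean; Cct3 stepped down from 425 and 416 CPM at E12.5 to 300.2 and 314 at E17, and the Cct8 value of P0 replicate 1, 241 CPM, lay below its partner at 349.

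The 4 steps between adjacent stages asked when, if at all, a subunit changed. From E12.5 to E14, 0 of 7 subunits were called by limma-voom, beside 0.638% of all genes. That share was 7.92% and 8.02% without P0 replicates 1 and 2, and under 0.05% without any one of the other 8 libraries. The fitted log2 fold changes ran from -0.22 to 0.04 with a median of -0.16, and 6 of 7 were below 0. Both E14 libraries lay below both E12.5 libraries for 5 of 7, Tcp1, Cct2, Cct3, Cct5 and Cct8, against 26.2% of all genes.

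From E14 to E15.5, the step with the most calls among all genes between adjacent stages (36.1%), 0 of 7 subunits were called by limma-voom. The all-gene share was 22.5% without E14 replicate 2 and 20.3% and 20.8% without E15.5 replicates 1 and 2. The log2 fold changes of the subunits ran from -0.11 for Cct3 to 0.14 for Cct7, with a median of 0.07, which was 0.022 without E14 replicate 1. Both E15.5 libraries lay above both E14 libraries for Cct2, Cct4, Cct7 and Cct8, and below both for Cct3. The share of all genes that did so was not computed for this step. The widest 95% interval was that of Cct8, from -0.29 to 0.43, so changes of that size lay within the error of 2 pools against 2. By total counts alone, without TMM, the median of all genes rose by 0.29 and 4 subunits were called higher, Tcp1, Cct2, Cct4 and Cct7. The TRiC median was then 0.37, and 44.9% of all genes were called, 72.7% of them higher. Measured from the all-gene median, the TRiC median was 0.08 under both scalings.

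From E15.5 to E17 all 7 fitted log2 fold changes were below 0, from -0.25 for Cct5 to -0.07 for Cct4, with a median of -0.16. Both E17 libraries lay below both E15.5 libraries for 7 of 7 subunits, against 33.8% of all genes. None of the 7 was called by limma-voom, beside 9.04% of all genes, a share that was 0% with E17 replicate 2 or any one E15.5 library left out, 0.134% with E17 replicate 1 left out, and 20.9% and 21.8% without P0 replicates 1 and 2. Cct5 had the lowest adjusted p, 0.0968. The 7 values stayed below 0 in every alternative run, by total counts too.

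From E17 to P0, 0 of 7 subunits were called by limma-voom, beside 20.5% of all genes, a share that was 4.11% and 8.91% without E17 replicates 1 and 2, 32% and 33.7% without P0 replicates 1 and 2, and 0% with only the 2 stages in the fit. Of the fitted log2 fold changes 6 were above 0, up to 0.16 for Cct5, and that of Cct8 was -0.18. Both P0 libraries lay above both E17 libraries for Cct5, and the share of all genes that did so was not computed. The 2 P0 libraries of Cct8 lay on either side of the E17 libraries. It was called, at -0.42, without P0 replicate 2 (limma-voom adjusted p = 0.0096), and had a value of 0.08 without P0 replicate 1.

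At an unadjusted p under 0.05 and with no fold threshold, limma-voom listed 0, 0, 1 and 0 subunits at the 4 steps in order, the 1 being Cct5 from E15.5 to E17. The edgeR quasi-likelihood test called none at any step and listed 0, 0, 1 and 0, and DESeq2 called none and listed 1, 0, 1 and 1.

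From E12.5 to P0, the comparison over the whole of neurogenesis, 62.1% of all genes were called, 30.1% higher and 32% lower. Of the 7 subunits 2 were called lower, Cct3 and Cct8, and 0 were called higher. Both P0 libraries lay below both E12.5 libraries for 4 of 7, Tcp1, Cct3, Cct5 and Cct8, against 38.8% of all genes. The median log2 fold change of the subunits was -0.25, beside -0.01 for all genes, whose quartiles were -0.78 and 0.84. This comparison shares its libraries with the first and last steps.

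The direction over the span depended on the scaling. By total counts alone the median of all genes rose by 0.51, all 7 subunits had fitted values above 0, and Cct2, Cct4 and Cct7 were called higher. That scaling called 66.4% of all genes, 72% of them higher. Measured from the all-gene median, the TRiC median was -0.23 under both scalings.

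**Figure D2:**
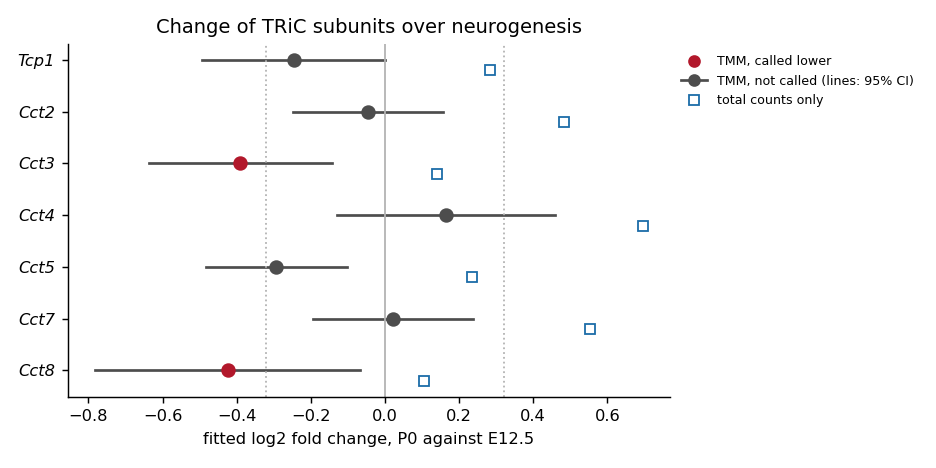
Fitted log2 fold change of each subunit from E12.5 to P0 (x axis). Circles with lines are TMM-scaled fits with 95% intervals, red where called lower, squares are fits by total counts only, and dotted lines mark the 0.32 that a call needs; Cct3 (-0.39) and Cct8 (-0.42) lie beyond it on the left by TMM, and every square lies right of 0.

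A moderated F test asked whether a subunit changed at any stage, without a fold threshold. It called 2 of 7 subunits, Cct3 (limma-voom adjusted p = 0.0285) and Cct5 (0.0120), beside 63.8% of all genes. The number was 0 without any one of the E12.5 or E17 libraries, and 1 without any one of those of E14 or E15.5.

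The balance among the subunits was followed by the share of each in their joint footprints, which no library scaling can move. Longer coding sequences collect more footprints, and shares are therefore compared between stages and not between subunits. Cct4 took 20.1% ± 1.94 (SD, n = 2) in the E12.5 pools, 22.2% ± 1.94 in the E14 pools, 23.1% ± 0.102 in those of E15.5, 24.2% ± 0.412 in those of E17 and 25.0% ± 0.376 in the P0 pools. Cct7 went from 16.6% ± 0.465 to 18.7% ± 0.973 between E12.5 and P0, and Cct2 from 5.68% ± 0.0922 to 6.09% ± 0.336. Cct3 went from 18.4% ± 0.605 to 15.6% ± 0.0953, Cct8 from 17.1% ± 1.23 to 14.2% ± 1.85, Tcp1 from 15.8% ± 0.302 to 14.8% ± 0.448, and Cct5 from 6.21% ± 0.174 to 5.62% ± 0.563. The shares of 1 library sum to a fixed total, so they do not move independently of each other. With 2 libraries against 2 an exact permutation test cannot give a two-sided p below 0.333, and the shares are a description.

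**Figure D3:**
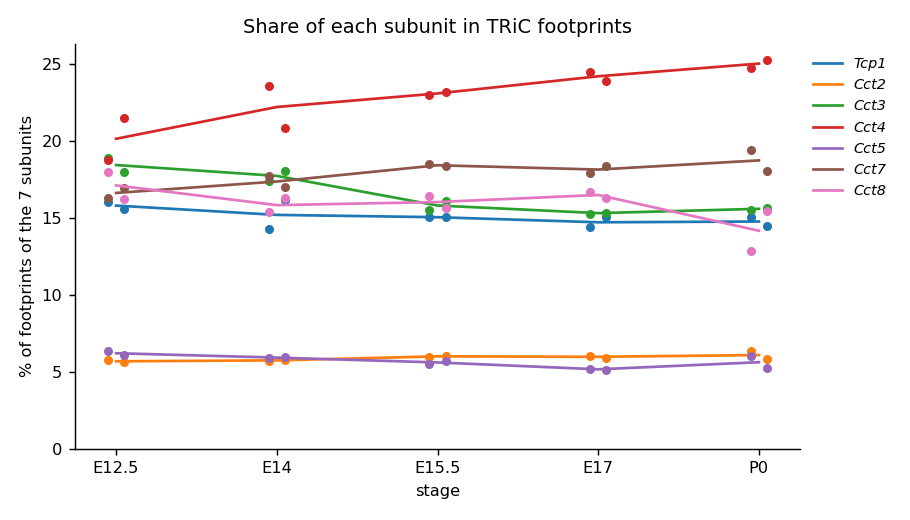
Share of each subunit in the footprints of the 7 TRiC subunits (y axis, percent) at each stage (x axis). Points are libraries and lines join the means of 2; Cct4 climbs from 20.1% to 25.0% while Cct3 goes from 18.4% to 15.6%.

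Over the 10 libraries the log2 CPM of the 21 pairs of subunits had Pearson correlations from -0.25 to 0.93, with a median of 0.58. The points share their stages and their libraries, P0 replicate 1 included. The 5 genes outside the lists whose log2 CPM was most like the mean of the subunits over the 10 libraries, among the 9098 genes that averaged 100 counts or more, were Cog5 (Pearson r = 0.979), Nufip1 (0.968), Smu1 (0.961), Blmh (0.960) and Tada2a (0.960).

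Prefoldin, the hexamer that hands unfolded actin and tubulin to TRiC, had 1 of 6 subunits called higher and 0 lower from E12.5 to P0, beside 30.1% and 32% of all genes. Pfdn5 rose from 457 and 464 CPM to 616 and 625, a log2 fold change of 0.43 (limma-voom adjusted p = 0.00186). The fitted values of the other 5, which did not pass, were -0.62 for Pfdn4, -0.46 for Pfdn1, -0.29 for Vbp1, -0.28 for Pfdn2 and -0.05 for Pfdn6. Without P0 replicate 1, Pfdn5 had a fitted value of 0.45, and the median of the list went from -0.29 to 0.01. By total counts Pfdn5 (0.96) and Pfdn6 (0.48) were called higher, beside 66.4% of all genes called, 72% of them higher.

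The phosducin-like co-factors, which bind TRiC and modulate its folding cycle, had 0 of 3 called by limma-voom, beside 62.1% of all genes. Their log2 fold changes were -0.25 for Pdcl, -0.21 for Pdcl3 and -0.36 for Txndc9. None had an unadjusted p under 0.05, and none was called by total counts. Txndc9 had 164 CPM in P0 replicate 1 and 332 in P0 replicate 2, and without P0 replicate 1 the median of the list was 0.03 in place of -0.25. Pdcl2 had 0 counts in every library.

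The chaperonin paralogues include Cct6b, a paralogue of Cct6a known from testis, and Mkks, Bbs10 and Bbs12, chaperonin-like proteins that help assemble the BBSome, a coat complex of cilia. Of 4 tested, 1 was called lower, beside 32% of all genes, and 0 higher, beside 30.1%. The gene called was Bbs12 (log2 fold change -0.47, limma-voom adjusted p = 0.0243), which went from 2.97 and 2.88 CPM to 1.85 and 2.17. Its direction turned to 0.05 by total counts. Mkks had 0.54, Bbs10 -0.72 and Cct6b -0.06, none of which passed. By total counts Mkks (1.06) and Cct6b (0.46) were called higher and 0 were called lower. That scaling called 66.4% of all genes, 72% of them higher. Cct8l1 had 1 count in all 10 libraries together and was not tested.

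The tubulin cofactors, which join the alpha and beta tubulin released by TRiC into a dimer, had 2 of 5 called higher, beside 30.1% of all genes, Tbcd (0.40, limma-voom adjusted p = 0.0225) and Tbcb (0.32, adjusted p = 0.0103). Tbcc had a fitted value of 0.40, Tbce of 0.30 and Tbca of 0.23, and these did not pass. Tbcd (0.31) and Tbcb (0.32) were, without P0 replicate 1, just under the size that a call needs. In that run Tbce (0.67) and Tbca (0.60) were above this size, and Tbcc had 0.21. By total counts all 5 were called higher, beside 66.4% of all genes called, 72% of them higher.

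Most genes of the main clients rose. Of 12 actin and tubulin genes, 10 were called higher and 1 lower from E12.5 to P0, beside 30.1% and 32% of all genes, with a median log2 fold change of 1.44, and the counts were the same without P0 replicate 1. Tubb3, the beta tubulin of neurons, rose from 690 and 783 CPM to 3244 and 3038, a log2 fold change of 2.10 (limma-voom adjusted p = 1.28e-06), and Tubb2a rose by 2.06 (2.14e-06). The cytoplasmic actins Actg1 and Actb rose by 0.95 and 0.74. Tubg1, the gamma tubulin of the centrosome, was the gene that fell, by 0.57 on the log2 scale, and by total counts its value was -0.05 and it was not called. At the step from E14 to E15.5, 8 were called higher, against 16.5% of all genes, and 1 lower, against 19.6%. At the step from E17 to P0, 11 were called higher, against 9.46% of all genes, and 0 lower, against 11.1%. At that step 8 were called higher without P0 replicate 1, and Actb, Tuba1b and Tuba1c were not (limma-voom adjusted p = 0.0758, 0.0594 and 0.0723). The near-identical Tuba1b and Tuba1c had almost the same counts, 0.977 to 1.02 Tuba1c counts per Tuba1b count over the 10 libraries. The methods name an isoform-level estimate of footprints (DeepShape-prime) summed to genes by tximport, and whether the deposited counts come from it is not stated. Single members, the number of them called, and the level and fold of any ratio to their sum are therefore uncertain where members share reads.

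TRiC footprints per 100 footprints of these 12 genes were 11.4 and 10.2 in the E12.5 pools, 8.28 and 9.44 in the E14 pools, 6.35 and 6.69 in those of E15.5, 5.96 and 6.09 in those of E17, and 3.49 and 5.11 in the P0 pools. Both libraries of each stage lay below both of the stage before. The mean went from 10.8 ± 0.885 (SD, n = 2) to 4.30 ± 1.14, which is 0.398 of the E12.5 value. The fold was 0.508 against actin genes alone and 0.321 against tubulin genes alone. The ratio does not depend on library scaling. Its level, and its fold against all 12 genes, depend on how often a shared tubulin or actin read was counted. The 8 neuron markers summed to 1552 and 1413 CPM at E12.5 and to 5119 and 6511 CPM at P0, and their part in the ratio was not tested. The fold was 0.473 with P0 replicate 1 left out.

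**Figure D4:**
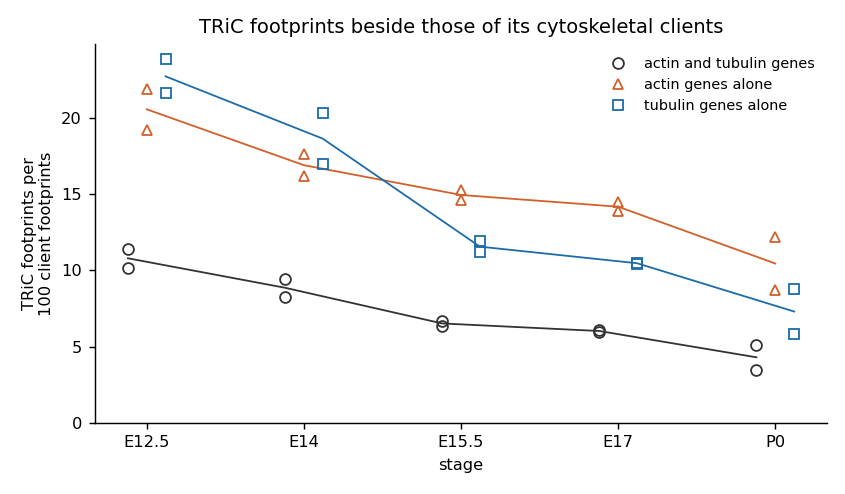
TRiC footprints per 100 footprints of actin and tubulin genes (circles), actin genes alone (triangles) and tubulin genes alone (squares) at each stage; points are libraries and lines join the means of 2. Against all clients the mean goes from 10.8 at E12.5 to 4.30 at P0.

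Of 12 other known TRiC clients, 4 were called higher and 4 lower, near the 30.1% and 32% of all genes, with a median of -0.02. The G protein beta subunits Gnb1 (log2 fold change 0.73) and Gnb2 (0.70) rose, while the mitotic kinase Plk1 (-3.97) and the activator of the anaphase-promoting complex Cdc20 (-3.91) fell, as did Ccne1 and Stat3. Without P0 replicate 1 the median was 0.10. Of the 4 called higher, Fzr1 (0.20) and Rptor (0.31) were then under the 0.32 that a call needs, and Gnb1 (0.67) and Gnb2 (0.54) were not. The 4 called lower stayed beyond that size. By total counts 7 were called higher and 3 lower, beside 66.4% of all genes called, 72% of them higher.

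Of 21 other chaperone and heat shock genes, 15 were called lower, beside 32% of all genes, and 0 higher, beside 30.1%, with a median log2 fold change of -0.55. With P0 replicate 1 left out, 12 were lower and 0 higher. By total counts 4 were lower, Hsp90b1, Hspa5, Hspd1 and Stip1, and 3 higher, Dnaja2, Dnajb1 and Ahsa1. That scaling called 66.4% of all genes, 72% of them higher. The endoplasmic reticulum chaperones Hsp90b1 (-2.29) and Hspa5 (-1.78) fell most. The mitochondrial chaperonin Hspd1, the group I relative of TRiC, fell from 133 and 110 CPM to 39.3 and 69.7 (-1.16, limma-voom adjusted p = 0.00245), and its lid Hspe1 fell by 0.77, a call that was lost by total counts (-0.25). The heat shock factor gene Hsf2 fell by 0.67, a call also lost by total counts (-0.14). Hsf1 had a fitted value of -0.55 that did not pass. Its P0 libraries had 3.81 and 1.48 CPM, from 35 and 62 counts, and its value without P0 replicate 1 was -0.86. No test compared this list with the TRiC subunits.

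**Figure D5:**
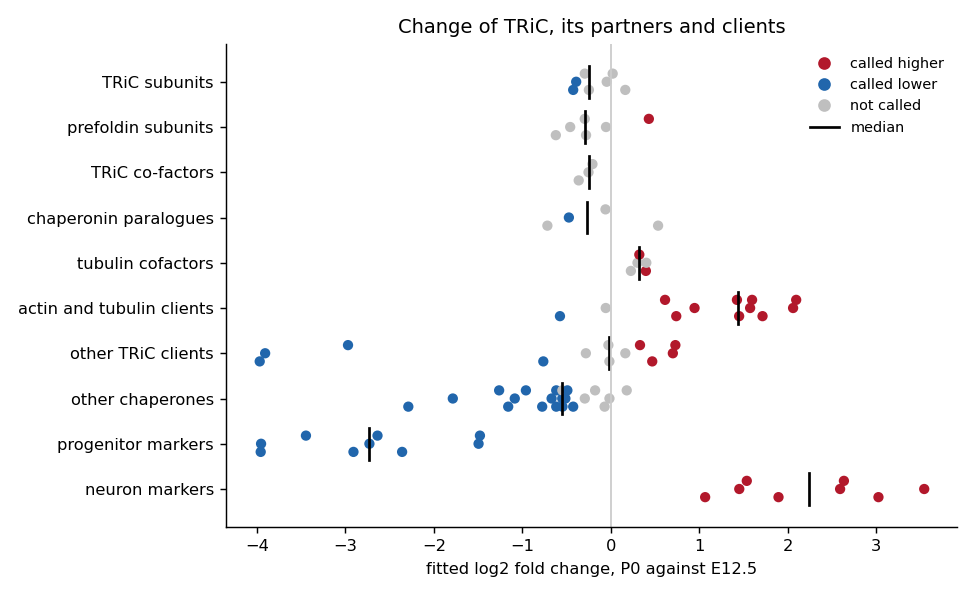
Fitted log2 fold change from E12.5 to P0 (x axis) of each gene tested, by list; red is called higher, blue called lower, grey not called, and the black bar is the median. The TRiC subunits lie between -0.42 and 0.16, the actin and tubulin clients have a median of 1.44, and the other chaperones a median of -0.55.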

How the data were processed

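The deposited file holds whole-number footprint counts, 22373 genes by 10 libraries. Per the study's methods, the authors digested lysates with RNase T1 and RNase A, collapsed duplicate reads, removed tRNA, rRNA and snoRNA reads and aligned the rest with STAR (2.7.0 in the submitters' processing notes), keeping reads that match several places. The methods name DeepShape-prime and tximport for isoform and gene estimates, and whether the deposited whole-number counts come from them is not stated. A symbol was matched to 22274 identifiers.

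Genes with 32 or more footprints in at least 1 stage, summed over its 2 libraries, were kept, which left 13484. Counts were scaled by TMM (edgeR 4.0.16) and tested with limma-voom (limma 3.58.1, R 4.3.3), the tool the study's methods name. The 10 libraries entered 1 fit with a coefficient for each stage. Moderated p-values are two-sided, with Benjamini-Hochberg adjustment across the kept genes. Log2 CPM used a pseudocount of 0.5 counts. Scripts were tested on simulated data. Alternatives were DESeq2 (1.42.0) size factors and test, edgeR's quasi-likelihood test, total counts, TMM without histone genes, no filter, quality weights, a replicate block, only the 2 stages compared, and each library left out. The gene lists without P0 replicate 1 were added after the data were seen, and were not run without P0 replicate 2.

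Library totals were 7544404 to 36129988 counts, of which 17269 to 94542 fell on the 7 subunits. The subunits, 7 pathway lists and 9 marker lists were chosen with earlier results of these data known. The text names all subunits, the genes of the 4 short lists (prefoldin, co-factors, paralogues, tubulin cofactors), up to 2 genes with the largest rise and 2 with the largest fall of each other list among those called from E12.5 to P0, and the 5 most alike genes. Actb, Actg1, Ahsa1, Ccne1, Dnaja2, Dnajb1, Fzr1, Hsf1, Hsf2, Hspd1, Hspe1, Rptor, Stat3 and Stip1 were named after their values were seen. Promoter windows came from RefSeq (GRCm38.p6).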

Additional observations from a re-analysis of the deposited data

How the results depend on the processing

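Subunits called from E12.5 to P0 numbered 2 with TMM and 1 with no filter on low counts, with the edgeR quasi-likelihood test and with the replicate block, 0 with only the 2 stages compared, and 0 to 2 with each library left out. In those with 1 call the gene was Cct3. By total counts only the number was 3, Cct2, Cct4 and Cct7, all called higher. That scaling called 66.4% of all genes, 72% of them higher. By the F test the number was 2, and it was 4 by total counts only, 1 with no filter and 0 to 3 with each library left out. By total counts only, 4 subunits were called from E14 to E15.5, beside 44.9% of all genes. With each library left out, 0 to 1 were called from E17 to P0.

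By total counts only, the median log2 fold change of the subunits was 0.37 from E14 to E15.5, 0.19 from E17 to P0 and 0.28 from E12.5 to P0. With each library left out it ranged from -0.18 to -0.078 from E12.5 to E14, from 0.022 to 0.10 from E14 to E15.5, from -0.027 to 0.16 from E17 to P0, and from -0.29 to -0.14 from E12.5 to P0. Signs turned by total counts only from E12.5 to P0 in Tcp1 (0.28), Cct2 (0.48), Cct3 (0.14), Cct5 (0.24) and Cct8 (0.11), from E14 to E15.5 in Cct3 (0.18) and Cct5 (0.27), and from E12.5 to E14 in Cct7 (0.012). With sample quality weights Cct7 had -0.0046 from E12.5 to P0. TMM sets the typical gene to 0 and total counts do not, which accounts for the shift of all genes.

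With each library left out, the log2 fold change that changed sign ranged from -0.081 to 0.15 for Cct4 and -0.090 to 0.0023 for Cct7 between E12.5 and E14. It ranged from -0.057 to 0.13 for Tcp1 and -0.061 to 0.011 for Cct5 between E14 and E15.5. From E17 to P0 it ranged from -0.027 to 0.15 for Tcp1, -0.044 to 0.20 for Cct3, -0.030 to 0.24 for Cct4 and -0.42 to 0.081 for Cct8, and from E12.5 to P0 from -0.093 to 0.030 for Cct2 and -0.027 to 0.11 for Cct7.

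Cct8 lost its call from E12.5 to P0 with no filter (adjusted p = 0.0604), with the edgeR quasi-likelihood test (0.0595), with the replicate block (0.0501) and with only the 2 stages compared (0.184). Whether replicate numbers pair the libraries was not settled. Over 10 pairs of stages the correlation of deviations between same-numbered libraries ran from -0.633 to 0.427, and 5 were over 0.1. TRiC footprints per client footprint at P0 were 0.508 of those at E12.5 against actin genes alone, and 0.323 to 0.473 with each library left out. The alternative by codon, leaving out the first and last codons, was not run, and footprints per codon were not computed.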
